A study of Mus musculus with 18 samples.

Results

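The genes described here encode the nuclear-encoded subunits of the mitochondrial respiratory chain and ATP synthase in mouse Kupffer cells, the macrophages that reside in liver sinusoids. They were chosen by symbol, as the Nduf, Uqcr, Cox4 to Cox8, Sdh and Atp5 families with Cyc1 and Cycs, and 89 names matched among 25915 distinct symbols in 3 deposited tables. Of these, 82 had at least 10 counts in 3 libraries of a table, and 78 did so in all 3 tables. They comprised 36 genes of complex I, 4 of complex II, 10 of complex III with cytochrome c, 14 of complex IV and 18 of complex V. The mice were C57BL/6J of wild-type genotype, and each of the 6 groups had 3 of the 18 libraries. A time course of acetaminophen, whose overdose injures hepatocytes, had groups at 0 h, 3 h, 6 h and 12 h. The columns at 0 h are named for PBS while their treatment label names acetaminophen, so the group is called by its time. Antibody groups received acetaminophen with anti-CD41, an antibody to a platelet integrin subunit, or with control IgG, at a time the labels do not give. Cells were taken from collagenase-digested liver by density gradient and brief adherence, steps that do not select on a surface marker. Whether the replicates were different mice is not stated, and a p-value here reads only library-to-library spread, part of which may be technical.

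The respiratory chain passes electrons from NADH, through complex I, and from succinate, through complex II, to ubiquinone, then through complex III and the carrier cytochrome c to complex IV, which reduces oxygen. The proton gradient this builds across the inner mitochondrial membrane drives complex V, the ATP synthase. Most subunits are encoded in the nucleus and the others in mitochondrial DNA, and macrophages activated by microbial products are known to lower respiration while glycolysis rises.

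The 5 promoters shown here were picked after the values were seen, because they belong to the members on which the results below turn: the pair of ATP synthase c-subunit genes that parted at 3 h, the Cox7a2 gene that fell beside its relative Cox7a2l that rose, and Cycs, among the largest falls. Each sequence runs 5′ to 3′ from 250 bases before to 50 bases after the RefSeq start in GRCm38.p6, all on the minus strand. The windows are chr11:96075582-96075881 for Atp5g1, chr15:102670998-102671297 for Atp5g2, chr9:79759804-79760103 for Cox7a2, chr17:83514284-83514583 for Cox7a2l and chr6:50566520-50566819 for Cycs. Capitals mark a match to the NRF1 motif, the only searched motif found in these windows.
Atp5g1: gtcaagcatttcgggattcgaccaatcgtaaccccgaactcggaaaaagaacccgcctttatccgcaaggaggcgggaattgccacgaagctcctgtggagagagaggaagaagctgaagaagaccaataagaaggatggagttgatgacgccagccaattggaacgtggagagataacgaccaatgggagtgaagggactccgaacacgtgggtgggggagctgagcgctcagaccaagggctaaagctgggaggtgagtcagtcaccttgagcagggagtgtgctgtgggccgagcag
Atp5g2: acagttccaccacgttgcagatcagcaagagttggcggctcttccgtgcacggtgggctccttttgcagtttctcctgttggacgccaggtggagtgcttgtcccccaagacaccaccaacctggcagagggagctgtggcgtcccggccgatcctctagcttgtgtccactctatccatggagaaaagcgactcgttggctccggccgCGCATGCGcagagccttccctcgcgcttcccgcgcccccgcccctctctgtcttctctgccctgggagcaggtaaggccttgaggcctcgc
Cox7a2: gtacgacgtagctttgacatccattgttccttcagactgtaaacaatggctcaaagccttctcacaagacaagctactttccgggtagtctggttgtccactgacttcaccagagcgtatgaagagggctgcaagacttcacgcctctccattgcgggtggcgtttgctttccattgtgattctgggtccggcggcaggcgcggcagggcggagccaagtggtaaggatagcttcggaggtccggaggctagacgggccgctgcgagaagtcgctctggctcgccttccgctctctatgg
Cox7a2l: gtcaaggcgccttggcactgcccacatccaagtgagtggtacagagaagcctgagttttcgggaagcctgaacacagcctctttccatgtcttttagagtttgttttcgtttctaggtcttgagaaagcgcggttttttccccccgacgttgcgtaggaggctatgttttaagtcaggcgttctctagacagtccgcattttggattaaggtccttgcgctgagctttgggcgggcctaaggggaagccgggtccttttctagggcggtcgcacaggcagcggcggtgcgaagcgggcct
Cycs: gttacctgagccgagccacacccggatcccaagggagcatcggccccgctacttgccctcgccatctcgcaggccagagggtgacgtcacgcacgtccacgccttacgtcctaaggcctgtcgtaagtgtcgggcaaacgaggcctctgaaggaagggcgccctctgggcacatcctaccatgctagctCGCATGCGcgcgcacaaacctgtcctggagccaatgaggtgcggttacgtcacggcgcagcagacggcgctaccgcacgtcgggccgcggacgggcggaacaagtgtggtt
Entries were found for 67 of the 82 members. The NRF1 motif CGCATGCG, bound by nuclear respiratory factor 1, stood in the promoters of 10 of them (14.9%), against 1.87% of all 32851 promoters listed and 3.93% of the 11277 genes tested at 3 h that have an entry. The YY1 motif AAGATGGCG stood in 7 (10.4%, against 3.17% of tested genes). The ETS motif CCGGAAGT, bound by GABPA, stood in 5 (7.5%, against 8.22%), and the estrogen-related receptor motif TCAAGGTCA in 2 (3.0%, against 0.293%). Both strands were searched, and none of these letter strings contains another. Among the c-subunit genes, Atp5g2 held the NRF1 motif, Atp5g3 the ERR motif and Atp5g1 neither. A match describes letters in the window and is not evidence that a factor binds there.

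Levels are counts scaled to a common library total (CPM), summed over the members of a complex on the plain scale where groups of the time course are set side by side. At 0 h, complex I members summed to 1350 ± 270.2 CPM (SD, n = 3), complex II to 468.1 ± 111.8, complex III with cytochrome c to 847.1 ± 193.5, complex IV to 1012 ± 152.5 and complex V to 2509 ± 528. At 3 h the sums were 820.8 ± 65.4, 267.8 ± 15.1, 432.9 ± 30.9, 703 ± 36.5 and 1317 ± 111 in the same order. For each complex, all 3 libraries at 3 h lay below all 3 at 0 h. At 6 h the sums were 981.9 ± 44.9, 317.9 ± 13, 502.6 ± 24.9, 761.3 ± 35.9 and 1511 ± 75.2, each mean between those of 0 h and 3 h. The 6 h and 12 h libraries stand in a table of their own, so no test was made between it and the earlier times. At 12 h the libraries spread widely, and complex I summed to 925.6, 2496 and 1165 CPM in the 3 replicates.

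**Figure D1:**
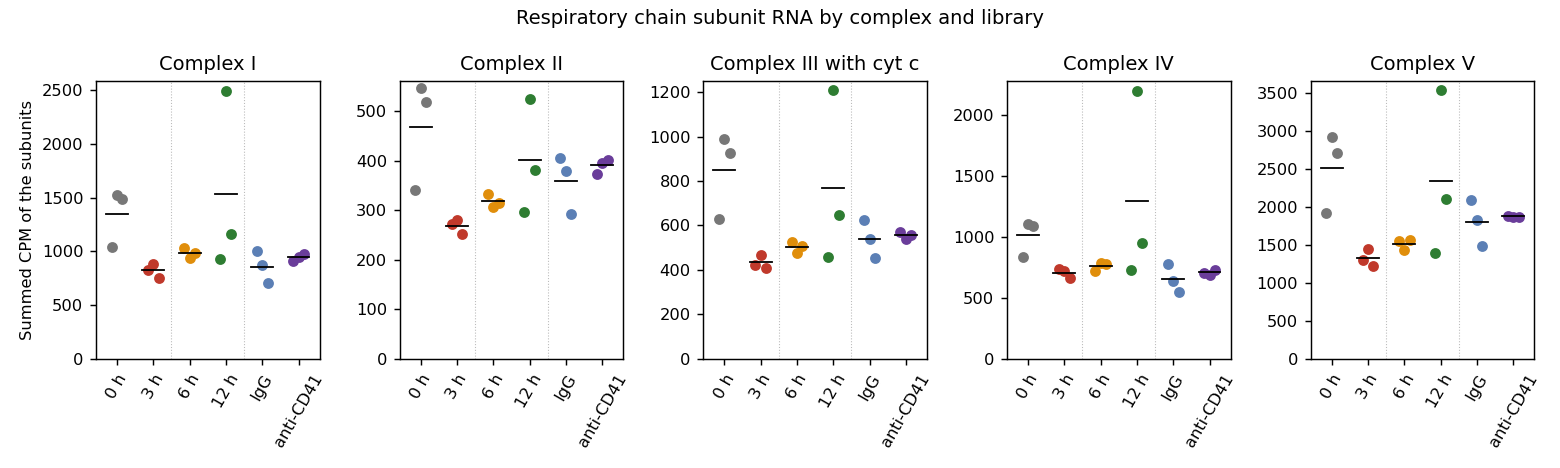
Summed CPM of the subunits of each complex (y axis, plain CPM) in each of the 18 libraries by group (x axis), with points for libraries in replicate order and a line for the group mean; dotted lines part the 3 tables. The libraries at 3 h lie below those at 0 h in every complex, and 12 h replicate 2 lies far above the other 12 h libraries.

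Compared per length, complex IV and complex V subunits had the highest typical levels. At 0 h the median FPKM over members was 146 for complex IV and 133 for complex V, against 80.6 for complex III with cytochrome c, 78.8 for complex II and 42.8 for complex I. At 3 h these medians were 93.3, 71.4, 44.9, 44.4 and 26.3 FPKM, so the order was kept. Atp5b, the catalytic beta subunit of ATP synthase, had the highest FPKM of complex V at both times, at 381 and 191. Cox8a, a small complex IV subunit, led its complex at 244 and 169 FPKM.

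The comparison of 3 h with 0 h asks how the transcripts of these cells stood early after acetaminophen. At 3 h, 68 of 80 tested members were called lower, where 23.0% of all 14161 genes tested were, and 1 was called higher, where 19.1% of genes were (edgeR quasi-likelihood test, Benjamini-Hochberg adjusted p under 0.05). The median log2 change was -0.78 over the members and -0.01 over all genes tested. In 73 members all 3 libraries at 3 h lay below all 3 at 0 h, as they did in 29.1% of genes. By complex, 28 of 36 members fell in complex I, 4 of 4 in complex II, 9 of 10 in complex III with cytochrome c, 11 of 13 in complex IV and 16 of 17 in complex V. Without 3 h replicate 3, 38 of 81 tested members were called lower, where 1855 of 14408 genes were, and the members' median change was -0.75. In these bulk samples fewer cells of a type and less RNA per cell cannot be told apart.

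Levels of listed cell type markers are set beside the members here, and they moved in both directions. Of the 3 libraries at 0 h, replicate 1 was the lowest for 79 of 80 members, at a median of 0.706 times the mean of the other 2. That library also had the lowest summed level of the 21 listed hepatocyte markers, 6116 CPM against 10650 and 10990, and the highest of 9 monocyte markers, 9661 CPM against 5624 and 4070. At 3 h the monocyte markers summed to 1945 to 2453 CPM, with 6 of 9 called lower. The hepatocyte markers summed to 2691 to 5456 CPM at 3 h, and 11 of the 21 were called lower and 1 higher. No hepatocyte marker was at 0, although the preparation includes a slow spin meant to remove hepatocytes. Their part in the members' fall was not tested. Of 16 Kupffer cell markers, 1 was lower and 6 were higher, and their sum was 11530 to 15870 CPM at 0 h and 13120 to 18080 at 3 h. Of 11 neutrophil markers 7 were higher, with a sum of 512.6 to 1565 CPM at 0 h and 1922 to 3698 at 3 h, and all 7 tested platelet markers were higher. Of 12 sinusoidal endothelial markers 2 were lower and 4 higher, with a sum of 7043 to 8785 CPM at 0 h and 9738 to 10900 at 3 h. Among all genes tested, 23.0% were lower and 19.1% higher. In a list of 12 the endothelial counts are near these shares. The counts of 1 lower Kupffer cell marker and 1 higher hepatocyte marker are under them.

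Complex I takes electrons from NADH, and 28 of its 36 tested members fell. Ndufb2, an accessory subunit of the membrane arm, stood at 12.5, 15.3 and 14.2 CPM (TMM scale) in the 0 h libraries and at 5.48, 7.18 and 5.26 at 3 h. The groups did not overlap, and the log2 change was -1.23 ± 0.17 (SE, edgeR adjusted p = 0.0036). Ndufb2 shares 145 exon bases with Gm42420 on the same strand. Ndufb10, another membrane-arm subunit, went from 33.1, 60.6 and 52 CPM to 21.8, 22.5 and 22.1 CPM. Its log2 change was -1.13 ± 0.21 (edgeR adjusted p = 0.0078), and its 3 h libraries nearly coincided. Ndufa5, an accessory subunit of the peripheral arm, changed by -1.11 ± 0.28 (edgeR adjusted p = 0.0198), a call that did not hold when 0 h replicate 2 was left out, nor when replicate 1 or replicate 3 of the 3 h group was. The 7 core subunits, which carry the flavin and iron-sulfur clusters or frame the quinone site, had a median log2 change of -0.69. The 29 accessory subunits had a median of -0.75, and 22 fell.

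At the other end of complex I, Ndufc2, a membrane-arm subunit, stood at 23.2, 27.4 and 28.5 CPM at 0 h and at 23.8, 23 and 22.9 at 3 h. The groups overlapped and its log2 change of -0.19 ± 0.11 was not called (edgeR adjusted p = 0.23). Ndufv3, an accessory subunit of the NADH-oxidizing module, was also uncalled, at 22.9, 34.1 and 34.6 CPM against 29.6, 26.2 and 23.7. Ndufa6, Ndufa7, Ndufb5, Ndufb11 and Ndufb4c were also uncalled. Ndufb4c is a near copy of Ndufb4 whose reads may be split between both, and its level is uncertain.

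Complex II, succinate dehydrogenase, also serves the citric acid cycle, and all 4 of its subunits fell. Sdha, the flavoprotein that oxidizes succinate, stood at 155, 243 and 219 CPM at 0 h and at 130, 134 and 134 at 3 h. Its change of -0.63 ± 0.17 was the smallest of the complex (edgeR adjusted p = 0.023). Sdhb, which holds the iron-sulfur clusters, went from 61.3, 95 and 91.2 CPM to 43.9, 50.5 and 41.1, a log2 change of -0.87 ± 0.18 (edgeR adjusted p = 0.011). The membrane anchors Sdhc and Sdhd changed by -0.79 ± 0.18 and -0.78 ± 0.21. None of the 4 genes had overlapping groups. The call of Sdhb held whichever library was left out, and that of Sdhc was lost without 3 h replicate 3. The calls of Sdha and Sdhd were lost without any one of the 3 h libraries, and also without replicate 2 or replicate 3 of the 0 h group.

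Complex III passes electrons from ubiquinol to cytochrome c, and 9 of its 10 members fell. Uqcrq, a small subunit, had the largest fall of all members, from 52.6, 100 and 91.3 CPM to 23.7, 31.5 and 27.6 CPM (log2 change -1.56 ± 0.25, edgeR adjusted p = 0.0049). Cycs, somatic cytochrome c, which also triggers apoptosis when released, went from 99.5, 158.5 and 133 CPM to 44.2, 57.8 and 58.6. In both genes the groups were far apart. Uqcrfs1, the Rieske iron-sulfur protein, changed by -0.995 ± 0.23 (edgeR adjusted p = 0.013), and Cyc1, cytochrome c1, by -0.73 ± 0.12 (edgeR adjusted p = 0.0055). Uqcr11 changed by -1.07 ± 0.25. The calls of Uqcrfs1 and Uqcr11 were lost without 3 h replicate 3, and that of Uqcr11 also without 0 h replicate 2. Uqcrh, the hinge protein, was not called, at 41.5, 62 and 52.8 CPM at 0 h against 37.6, 38.2 and 39.6 at 3 h, although its groups did not overlap (edgeR adjusted p = 0.054).

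Complex IV, cytochrome c oxidase, had 11 falls and the only rise among the members. Cox7b went from 41, 72.8 and 71.6 CPM to 24.6, 25.2 and 25.2, a log2 change of -1.31 ± 0.22 (edgeR adjusted p = 0.0056). Ndufa4, named for complex I but a subunit of complex IV, changed by -1.08 ± 0.20 (edgeR adjusted p = 0.0069), from 48.6, 80.9 and 77 CPM to 30.8, 35.1 and 31.5. The falls of Cox4i1, Cox6a1 and Cox8a were small, at -0.35 ± 0.09, -0.41 ± 0.10 and -0.45 ± 0.12. Each was called (edgeR adjusted p = 0.0178, 0.0193 and 0.0247), and each call was lost when some single libraries were left out.

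Cox7a2l rose. This relative of Cox7a2 binds complex III and complex IV and takes part in joining them into supercomplexes, and C57BL/6 mice are known to carry a shortened form of the protein. Its level was 74.8, 90.5 and 83.4 CPM at 0 h and 151, 121 and 131 at 3 h, with no overlap (log2 change 0.70 ± 0.12, edgeR adjusted p = 0.0063). It was called higher in every alternative run for this comparison. Cox7a2 itself went from 31.9, 44.5 and 41.1 CPM to 20.2, 23.6 and 23.4 (log2 change -0.81 ± 0.15, edgeR adjusted p = 0.0075). Per length, in FPKM, Cox7a2l stood at 1.60, 1.39 and 1.39 times the level of Cox7a2 at 0 h and at 5.20, 3.57 and 3.95 times at 3 h. The ratio was 4.96, 4.87 and 2.98 at 6 h and 3.88, 1.52 and 1.90 at 12 h. All 3 h ratios lay above all 0 h ratios, whereas the 6 h and 12 h ratios overlapped. Exact two-sided permutation tests of 5 isoform ratios and shares in 3 comparisons, 15 in all, were added after the values were seen. For this ratio at 3 h the exact permutation p was 0.1, the smallest that 3 libraries against 3 allow, and the adjusted p was 0.3. With that floor the test could not decide on the ratio.

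In ATP synthase, 2 of the 3 genes that encode its identical c subunit, whose ring turns in the membrane, fell at 3 h and the third was not called. The mature proteins of Atp5g1, Atp5g2 and Atp5g3 are the same and the genes differ in their mitochondrial targeting peptides. Atp5g1 went from 56.4, 104 and 93.8 CPM to 27, 35.3 and 25.5, a log2 change of -1.53 ± 0.25 (edgeR adjusted p = 0.0051). Atp5g3 went from 76, 138 and 124 CPM to 47.6, 59.5 and 46.7 (log2 change -1.13 ± 0.23, edgeR adjusted p = 0.0094). Atp5g2 was not called, at 54.3, 79.4 and 77.6 CPM against 68.7, 64.3 and 53.9, with overlapping groups (log2 change -0.18 ± 0.17, edgeR adjusted p = 0.43).

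As shares of the summed FPKM of the 3 c-subunit genes, Atp5g1 made up 27.0%, 29.2% and 28.5% at 0 h and 16.4%, 19.3% and 17.7% at 3 h. Atp5g2 made up 32.4%, 27.6% and 29.4% at 0 h and 51.8%, 44.2% and 46.5% at 3 h. The shares of both genes did not overlap between the times. Each had an exact permutation p of 0.1, the smallest that 3 libraries against 3 allow, and an adjusted p of 0.3. The test therefore could not decide on either difference in share. At 6 h Atp5g2 held 46.1% to 49.7%, and at 12 h its share was 49.5%, 35.6% and 42.9%.

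**Figure D2:**
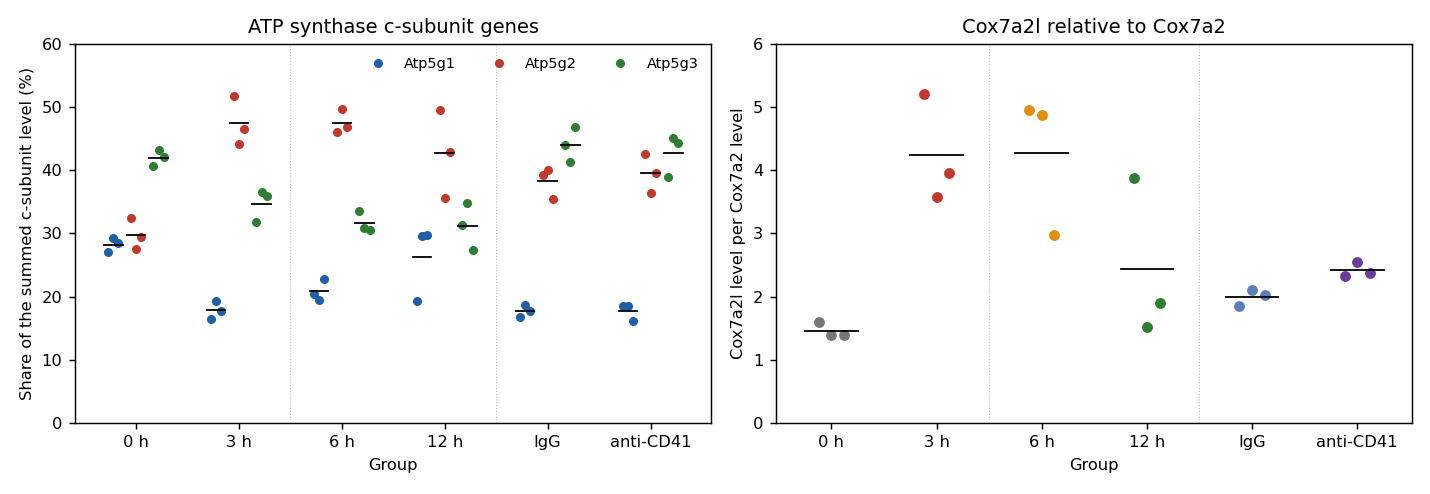
Left, share of the summed c-subunit level held by Atp5g1, Atp5g2 and Atp5g3 (y axis, percent); right, level of Cox7a2l divided by that of Cox7a2 (y axis), in each library by group (x axis), from FPKM in the time course and CPM per kb in the antibody groups, with lines for group means. The Atp5g2 share is 27.6% to 32.4% at 0 h and 44.2% to 51.8% at 3 h, and the Cox7a2l ratio is 1.39 to 1.60 at 0 h and 3.57 to 5.20 at 3 h.

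The rest of ATP synthase fell together. The 5 subunits of the catalytic F1 head all fell, with a median log2 change of -0.81 and a range of -1.05 to -0.68. The 4 subunits of the peripheral stalk fell with a median of -0.83, and the 5 small membrane subunits Atp5j2, Atp5k, Atp5l, Atp5md and Atp5mpl with a median of -0.93. Atp5b, the catalytic beta subunit, had the highest CPM of these, at 514, 803 and 721 at 0 h and 344, 381 and 351 at 3 h. Atp5k, the e subunit found where ATP synthases pair, changed by -1.19 ± 0.20 (edgeR adjusted p = 0.0059). Atp5o, the stalk subunit that confers sensitivity to oligomycin, changed by -1.15 ± 0.18 (edgeR adjusted p = 0.0049), and it overlaps the exons of Donson on the same strand.

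**Figure D3:**
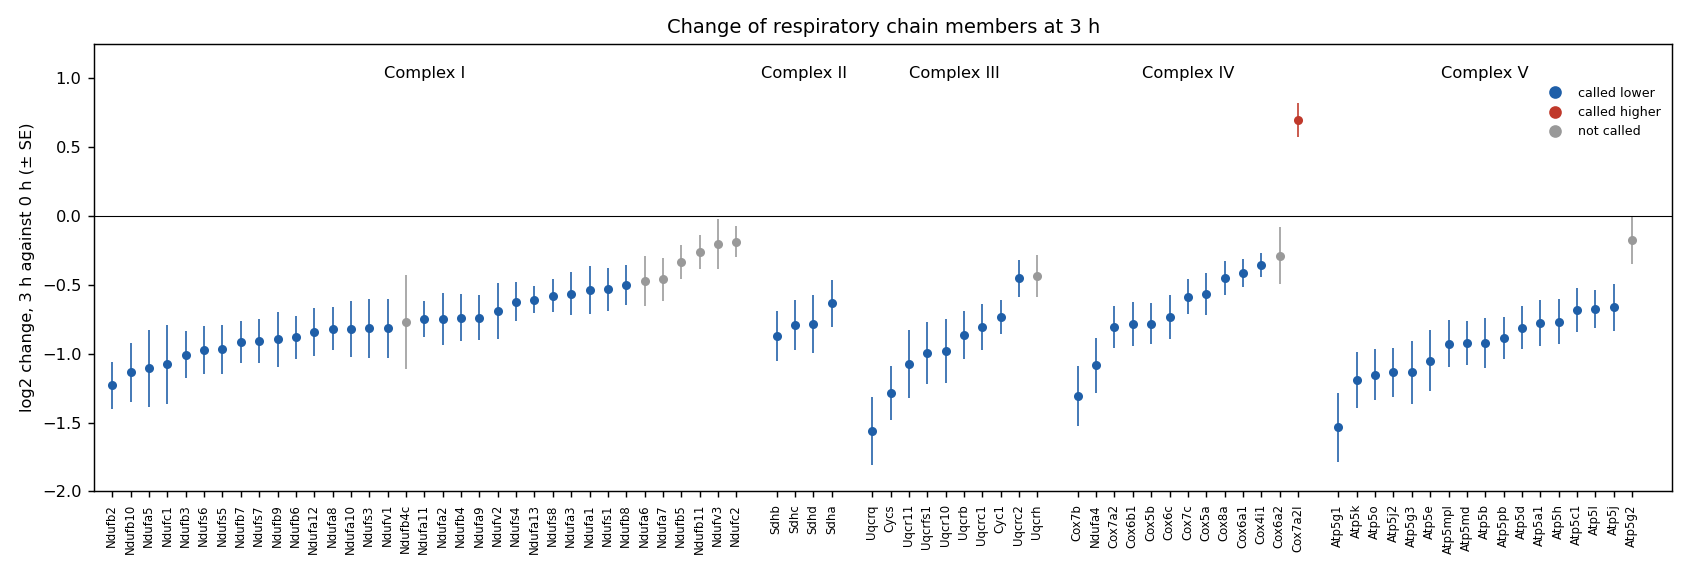
Change of 79 of the 80 tested members at 3 h against 0 h (y axis, log2 with SE bars), ordered within each complex (x axis); blue marks a call lower, red a call higher and grey no call at an adjusted p of 0.05. All but Cox7a2l lie below 0, and Uqcrq and Atp5g1 lie lowest, at -1.56 and -1.53.

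The fall of the members at 3 h was of similar size across transcript lengths. The lengths implied by counts and FPKM gave a median log2 change of -0.78 for the 31 members under 600 nt, -0.82 for 25 between 600 and 1000 nt, and -0.74 for 13 between 1000 and 1500 nt. Among all genes tested the same classes had medians of -0.41, -0.39 and -0.21. From 1500 to 2500 nt the median was -0.805 for 7 members and -0.14 for all genes, and from 2500 to 4000 nt -0.69 for 4 members and 0.001 for all genes. Genes over 4000 nt, with 0 members among them, had a median of 0.17. Spearman's rho between length and log2 change was 0.11 across the 80 members and 0.25 over 13427 genes with a length. Both are descriptions over genes that share the same libraries.

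Several isoforms and related genes of these families were scarce. Cox4i2, Cox7a1, Cox8b, Cox7b2, Cox8c, Ndufb4b and Ndufa4l2 did not reach 10 counts in 3 libraries of any table. Cox6a2, the muscle form of Cox6a, was kept, at 6.52, 4.47 and 4.34 CPM at 0 h and 4.18, 4.21 and 4.17 at 3 h, a difference that was not called (edgeR adjusted p = 0.303). In FPKM it was 0.0552, 0.0322 and 0.0326 times the level of Cox6a1 at 0 h and 0.0451, 0.0395 and 0.0446 times at 3 h, with overlapping groups. At the threshold itself, Cox6b2 reached 10 counts in 3 libraries of the 6 h and 12 h table, with 91 counts in all, and in 2 libraries of the 0 h and 3 h table, with 61. Cox7a1 lay just outside, with 10 counts in 2 libraries of the antibody table and 50 in all.

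Genes that build or regulate the chain were taken from lists chosen with earlier results known. Of 54 tested assembly factors, 26 were lower at 3 h and none higher, where 23.0% of all genes tested were lower and 19.1% higher. The lists for complexes I, II, III, IV and V had median log2 changes of -0.73, -0.53, -0.62, -0.47 and -0.25. Taco1, which promotes translation of mitochondrial Cox1, went from 12.3 to 3.39 CPM on average (log2 change -1.85 ± 0.28, edgeR adjusted p = 0.0042). Coa6, needed to deliver copper to complex IV, went from 9.11 to 2.96 CPM (log2 change -1.62 ± 0.24, edgeR adjusted p = 0.0043). Ndufaf4, a complex I assembly factor, went from 27.3 to 8.56 CPM (log2 change -1.67 ± 0.32, edgeR adjusted p = 0.0079). Uqcc2, which aids synthesis of cytochrome b, changed by -1.09 ± 0.16, and Fmc1, an ATP synthase assembly factor, by -1.51 ± 0.26.

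Of 17 regulators of chain genes, 3 were lower and 1 higher, with a median log2 change of -0.03. These shares were no larger than the 23.0% lower and 19.1% higher among all genes tested, so the counts are no result about the regulators. Tfb1m, which methylates mitochondrial ribosomal RNA, changed by -1.90 ± 0.29 (edgeR adjusted p = 0.0046), Twnk, the mitochondrial helicase, by -0.95 ± 0.24, and Pprc1, a coactivator related to PGC-1, by -0.61 ± 0.15. Gabpb1, the partner of GABPA, rose by 0.52 ± 0.17 (edgeR adjusted p = 0.047). Of 20 carriers, porins and import genes, 12 were lower and 3 higher, the second count being near the 19.1% of all genes. Phb2 and Tomm40 changed by -0.66 ± 0.10 and -0.71 ± 0.11, while the ADP/ATP carrier Slc25a4 rose by 0.75 ± 0.15 and its relative Slc25a5 changed by -0.50 ± 0.12. Of 8 tested hypoxia-linked genes, Higd1a was lower, and Pdk1 and Bnip3l were higher, at log2 changes of -0.78 ± 0.17, 0.66 ± 0.18 and 0.55 ± 0.13. In a list of 8 these counts are near the background of 23.0% lower and 19.1% higher. The 13 genes of mitochondrial DNA are not listed in the time-course tables.

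The comparison of 12 h with 6 h gave no called member. Of 81 tested, 0 were lower and 0 higher by edgeR, and 0.0% of 14010 genes were called in either direction. At an unadjusted p under 0.05 there were 9 members, against 5.18% of all genes. DESeq2 called 0 members, with 1 gene lower and 2 higher of 18297 tested, and 28 members had an unadjusted p under 0.05. With limma voom and library weights 0 members and 0 genes were called, and 11 members were under that unadjusted threshold. The median log2 change was 0.84 over the members and -0.01 over all genes, with 79 of 81 members above 0. Among genes of like transcript length the medians were closer. Under 600 nt they were 0.985 for members and 0.838 for all genes. From 600 to 1000 nt they were 0.741 and 0.632, and from 1000 to 1500 nt 0.448 and 0.324. From 1500 to 2500 nt they were 0.239 and 0.107, and for 4 members from 2500 to 4000 nt 0.47 against -0.0596. In 6 members all 12 h libraries lay above all 6 h libraries, as they did in 4.12% of genes. The median over all 81 members rested on 1 library: leaving out 12 h replicate 2 brought it to 0.17. Leaving out 12 h replicate 1 brought it to 1.197, where 64 members had an unadjusted p under 0.05. In that run 0 members were called, and 1 gene was lower and 1 higher of 14248 tested. The share of all genes under the unadjusted threshold was not computed for these alternatives, so the members' counts there have no background.

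At 12 h, replicate 2 was the highest library for 79 of 81 members and replicate 1 the lowest for 76. The median coefficient of variation of a member was 62.9% at 12 h and 8.27% at 6 h. Atp5e, the epsilon subunit of the F1 head, stood at 17, 20.4 and 22.6 CPM at 6 h and at 16.8, 128 and 39.8 at 12 h. Atp5b, its catalytic neighbour, stood at 397, 390 and 415 CPM and at 401, 655 and 568. In both genes replicate 2 was the highest, by far more in the short Atp5e transcript of 365 nt than in Atp5b with 1830 nt. Sdha, at 2810 nt, stood at 152, 144 and 146 CPM at 6 h and at 146, 160 and 166 at 12 h.

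That difference ran along transcript length across the table. In 12 h replicate 2, genes under 600 nt stood at a median log2 difference of 1.5 from the median of the other 5 libraries, those of 1500 to 2500 nt at 0.21, and those over 4000 nt at -0.67. The members had medians of 1.74 under 600 nt (31 members), 1.46 from 600 to 1000 nt (26 members), 1.16 from 1000 to 1500 nt (13 members) and 0.51 from 1500 to 2500 nt (7 members). For 4 members from 2500 to 4000 nt the median was 0.97. All genes stood at 1.13 from 600 to 1000 nt, 0.66 from 1000 to 1500 nt and -0.19 from 2500 to 4000 nt. The members' median was above that of all genes in each class that held members. Spearman's rho between length and this difference was -0.52 over 81 members and -0.64 over 13266 genes with a length. In 12 h replicate 1 the members under 600 nt stood at -0.17 and all genes of that class at -0.19, and in replicate 3 they stood at 0.41 and 0.33. From 1500 to 2500 nt the replicate 3 medians were 0.38 for the members and -0.01 for all genes. Over any length they were 0.37 and -0.002 in replicate 3, and -0.19 and 0.009 in replicate 1. The part of length in the members' 12 h values was not tested further. Monocyte markers summed to 1188, 10860 and 11410 CPM in the 12 h replicates and to 1601 to 4569 CPM at 6 h, and Kupffer cell markers to 14590, 10930 and 14330 CPM at 12 h and 17640 to 19570 CPM at 6 h. Sinusoidal endothelial markers summed to 12200, 5518 and 2334 CPM in 12 h replicates 1, 2 and 3, and to 8787 to 9692 CPM at 6 h. Hepatocyte markers summed to 5067, 4630 and 2163 CPM in the 12 h replicates and to 4067 to 4975 CPM at 6 h. Their part in the members' values was not tested.

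**Figure D4:**
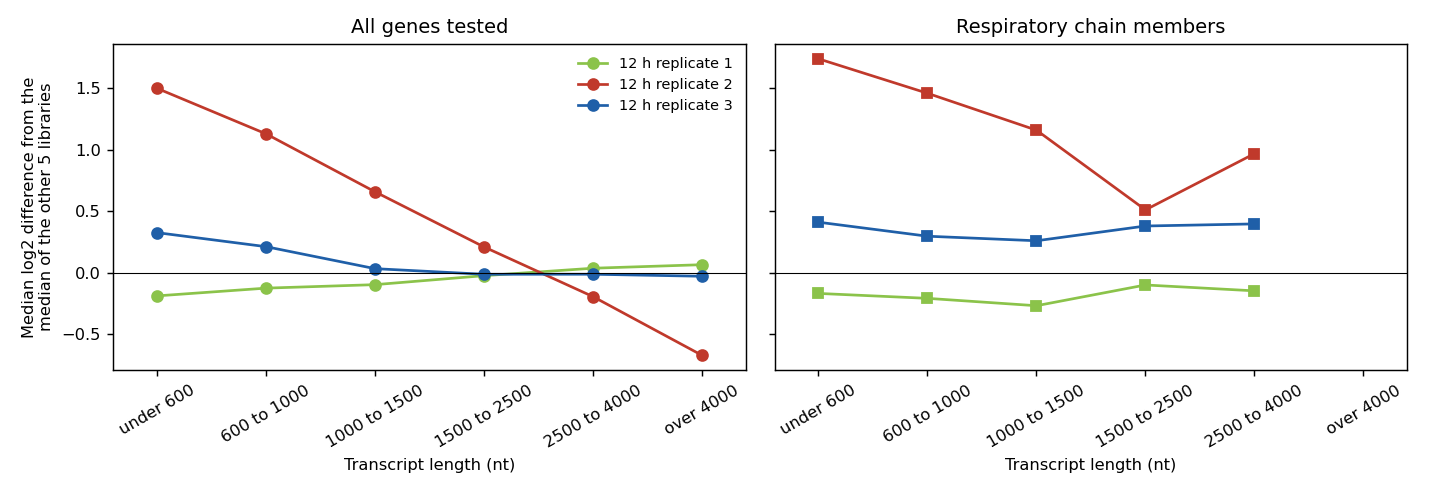
Median log2 difference of each 12 h library from the median of the other 5 libraries of its table (y axis) by transcript length (x axis, nt), for all genes tested (left, circles) and for the members (right, squares). Replicate 2 falls from 1.5 to -0.67 along length over all genes, and its members stand at 1.74 under 600 nt.

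Among single members at 12 h, Uqcrq stood at 32.1, 30.6 and 32.7 CPM at 6 h and at 32.7, 136 and 51.9 at 12 h, touching but not overlapping (log2 change 1.21 ± 0.49, edgeR adjusted p = 0.70). Atp5g1 stood at 38.4, 39.1 and 43.5 CPM at 6 h and at 33.5, 152 and 76.9 at 12 h. Cycs stood at 66, 65.9 and 73.4 CPM and at 54.8, 201 and 101. In these 2 genes replicate 1 lay below every 6 h library and replicates 2 and 3 above. Cox7a2l had no common direction, at 136.5, 160 and 110.5 CPM at 6 h and 124, 185 and 88 at 12 h. Its log2 change was -0.04 ± 0.32 and its sign turned when some single libraries were left out, while the other 13 members of complex IV had log2 changes of 0.58 or more, none of them called.

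The antibody comparison asks whether the cells differed when anti-CD41 was given with acetaminophen in place of IgG. No member was called: of 80 tested by edgeR, 0 were lower, where 0.00671% of 14905 genes were, and 0 were higher, where 0.0671% were. At an unadjusted p under 0.05 there were 0 members, against 18.5% of all genes. DESeq2 called 0 members, with 444 genes lower and 623 higher over the whole table, and limma voom with library weights also called 0, with 4 at an unadjusted p under 0.05. The members' median log2 change was -0.00077 and their range -0.32 to 0.35, with 40 below and 40 above 0. That median moved with single IgG libraries and was 0.15 without IgG replicate 1, with 5 members at an unadjusted p under 0.05, and -0.0601 without IgG replicate 3, with 2 such members. For the alternatives, the share of all genes under that threshold was not computed, so their counts of members have no background. By complex the medians were 0.05, 0.02, -0.06, -0.01 and -0.02 for complexes I to V. Of the named members, 49 of 330 alternative values had the opposite sign to the main value.

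The IgG libraries differed among themselves. Replicate 1 was the highest of them for 69 of 80 members and replicate 3 the lowest for 58. On the plain scale complex V summed to 2088, 1817 and 1475 CPM in the IgG libraries and to 1872, 1868 and 1867 with anti-CD41, whose libraries lay inside the IgG range. IgG replicate 3 also had the highest summed level of 11 neutrophil markers, 4432 CPM against 1106 and 941.9, and 325 to 704 CPM with anti-CD41. Sinusoidal endothelial markers summed to 4983 to 8635 CPM with IgG and 10920 to 14890 with anti-CD41. Monocyte markers summed to 10450 to 13740 CPM with IgG and 5519 to 10250 with anti-CD41. The neutrophil, endothelial and monocyte sums did not overlap between the groups, but 0 of these markers were called. Hepatocyte markers summed to 1787, 2298 and 1859 CPM with IgG and to 1642, 3990 and 4056 with anti-CD41. Those sums overlapped, and 0 of the 21 hepatocyte markers were called. Among all genes tested, the anti-CD41 libraries lay wholly above in 12.7% and wholly below in 12.3%. The markers' part in the members' values was not tested.

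In 3 of 80 members all anti-CD41 libraries lay above all IgG libraries, as they did in 12.7% of all genes tested, and in 1 member, Cycs, all lay below, as in 12.3% of genes. Both counts were under the background. Ndufa5 stood at 7.58, 6.73 and 5.14 CPM with IgG and 8.68, 8.1 and 7.98 with anti-CD41 (log2 change 0.35 ± 0.20, edgeR adjusted p = 0.39). Ndufa4 stood at 43.6, 35.4 and 33.8 CPM and at 44.3, 44.2 and 45.9 (log2 change 0.25 ± 0.12, edgeR adjusted p = 0.33). Cox7a2l stood at 72.2, 70.3 and 74.8 CPM and at 76.8, 88.3 and 90.4 (log2 change 0.23 ± 0.10, edgeR adjusted p = 0.28). These are the 3 members whose anti-CD41 libraries lay above, and none of their changes was called.

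Atp5l, a small membrane subunit of ATP synthase, went the other way with overlapping groups, at 48.2, 30.1 and 36.4 CPM against 34.3, 27.5 and 30.3 (log2 change -0.32 ± 0.19, edgeR adjusted p = 0.41). Cycs stood at 80.5, 74.4 and 76.4 CPM with IgG and 73.8, 63 and 70.5 with anti-CD41, not overlapping and not called (log2 change -0.16 ± 0.10, edgeR adjusted p = 0.43). Uqcrb, a small complex III subunit, had a log2 change of 0.22 ± 0.15.

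In CPM per kb, Cox7a2l stood at 1.85, 2.11 and 2.02 times the level of Cox7a2 with IgG and 2.32, 2.54 and 2.38 times with anti-CD41. Atp5g2 held 35.5% to 40.0% of the c-subunit level with IgG and 36.4% to 42.6% with anti-CD41, and Atp5g1 held 16.8% to 18.7% and 16.1% to 18.5%. The c-subunit shares of both groups overlapped, while the Cox7a2l ratios did not. For that ratio the exact permutation p was 0.1, the smallest possible here, and the adjusted p 0.3, so the test could not decide.

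This table also lists the 13 protein-coding genes of mitochondrial DNA, which encode the other subunits of complexes I, III, IV and V. None was called, 0 had an unadjusted p under 0.05, and their median log2 change was 0.12. They summed to 18070, 17970 and 13110 CPM with IgG and to 15910, 21290 and 19640 with anti-CD41. mt-Co1, the catalytic subunit of complex IV, averaged 6591 CPM with IgG and 7285 with anti-CD41 (log2 change 0.14 ± 0.17, edgeR adjusted p = 0.69). None of the 54 tested assembly factors was called either.

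**Figure D5:**
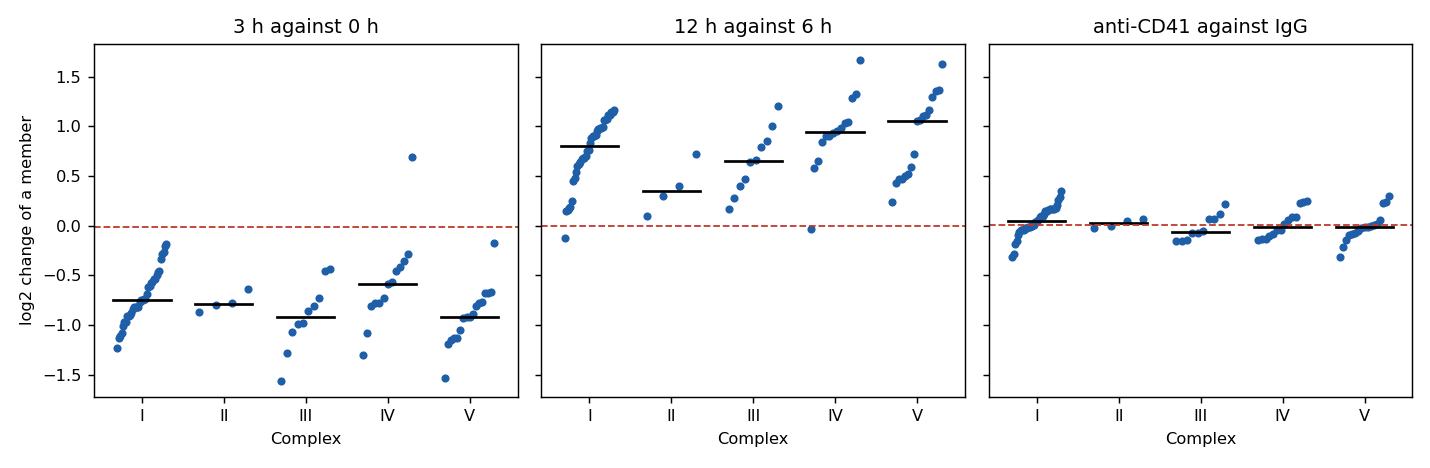
log2 change of each tested member (points, y axis) by complex (x axis) in the 3 comparisons, with black lines for complex medians and a dashed red line for the median of all genes tested. The members lie below 0 at 3 h but for Cox7a2l, mostly above 0 at 12 h against 6 h with no call, and on both sides of 0 with anti-CD41, between -0.32 and 0.35.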

How the data were processed

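Total RNA of adherent liver macrophage preparations was sequenced in 18 libraries. Per the submitters' processing notes, HISAT2 and GRCm38 were used; counter, gene models and versions: not given in the sources used here. Both time-course tables deposited by the authors give each gene an expected count, an estimate that may hold fractions of a read, and an FPKM value, and the antibody table deposited by the authors holds whole-number counts, per the file headers and the values. Among 81 members of the time-course tables, 20 had counts that were not whole, as reads shared between genes give. Columns were matched by name, and 0 columns of other samples were present. The library totals ranged from 18644358 to 20583099 counts in the time course and from 28017439 to 38382509 with antibodies.

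Expected counts were rounded to whole numbers. Within each table, genes passing edgeR's filterByExpr (minimum count 10) were scaled by TMM and tested with the quasi-likelihood test (edgeR 4.0.16, limma 3.58.1, R 4.3.3), as a two-sided test whose p-values were adjusted by Benjamini-Hochberg across every tested gene, with calls at 0.05. CPM are on the TMM scale in comparisons and plain across groups. SE is that of the fitted log2 change. Levels between genes use FPKM, or CPM per kb with lengths implied by counts and FPKM. Promoters and gene names are from RefSeq (GRCm38.p6), and exon overlaps from GENCODE. Motif counts are descriptions without a test. Isoform ratios were planned as descriptions, and exact permutation tests of them were added later. The scripts were tested on simulated data with known changes.

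Members and lists were chosen with earlier results of these data known. Members named are, per comparison and complex, the 3 with the largest change at 5 CPM or more in the higher group and the 1 with the smallest, any called against most members, isoform pairs, Sdha to Sdhd, Cyc1, Cycs and Uqcrfs1, and up to 3 genes per list by p, of which some are given by counts only; others were chosen after their values were seen. Values of 1 member are not reported here, though counts and sums include it. Atp5md is listed under another symbol in the antibody table and was not matched there. Atp5s was matched only in that table. Alternatives were no filter, DESeq2 size factors within edgeR, DESeq2 1.42.0, limma on log2(FPKM + 1) and log2(FPKM + 0.1) in the time-course tables, each library left out and the replicate number as a block; limma voom with library weights, the isoform tests, the subunit classes, the length classes, the counts of highest and lowest libraries and the printed promoters were chosen after the data were seen.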

Additional observations from a re-analysis of the deposited data

How the results depend on the processing

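The count of members called lower at 3 h was 66 to 74 under the alternatives that kept all 6 libraries, where 2853 to 3796 genes were lower. It was 38 to 74 when 1 library was left out, lowest without 3 h replicate 3, with medians of -0.94 to -0.67. In those runs 1855 to 3521 genes were lower, also fewest without 3 h replicate 3. The count of members called higher was 1 in each, where 1599 to 3193 genes were higher. Of 351 alternative values of named members there, 317 kept their call, 30 lost it and 4 gained it, with no change of sign; calls were lost for Ndufa5, Sdha, Sdhc, Sdhd, Uqcr11, Uqcrfs1, Cox4i1, Cox6a1 and Cox8a, and gained for Uqcrh. At 12 h and with anti-CD41, 0 members were called under every alternative run, while calls over the whole antibody table ranged from 0 to 444 lower and 0 to 623 higher. With limma on log2(FPKM + 0.1) the median of all genes at 3 h was -0.12 and that of the members -0.84.

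With the replicate block, 66 members were called lower and 1 higher at 3 h, where 2853 and 2188 of 14161 genes were. In the other comparisons it called 0 members. Over the antibody table it called 89 genes lower and 295 higher, against 1 and 10 without it. Whether the numbers pair the samples is not stated. Same-numbered deviations had correlations of 0.0247, 0.273 and -0.126 at 3 h and 0.271, -0.0464 and 0.179 at 12 h. With antibodies they were 0.089, 0.174 and 0.0368. Correlations this small and mixed do not settle whether samples were paired.

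Signs turned for uncalled members, and the cause was not tested. Each log2 change below is followed by its range when 1 library was left out and by any other alternative that turned it. At 12 h these were Sdhd 0.30 (-0.049 to 0.54), Cox7a2l -0.0365 (-0.36 to 0.24), Uqcrfs1 0.40 (-0.11 to 0.75). With anti-CD41, 49 of 330 values turned and 281 did not: Ndufa13 -0.29 (-0.51 to 0.0265), Ndufb10 -0.00217 (-0.12 to 0.10, 0.000387 with no filter, 0.00723 with block), Sdhd 0.0682 (-0.0333 to 0.21), Sdha 0.0478 (-0.0575 to 0.12), Sdhb -0.0239 (-0.11 to 0.0944), Sdhc 0.000621 (-0.0449 to 0.0645, -0.0117 with size factors, -0.0107 with DESeq2, -0.028 with voom), Uqcr11 -0.0554 (-0.24 to 0.28, 0.0599 with voom), Cox6c -0.14 (-0.21 to 0.00208), Cox7b 0.0206 (-0.15 to 0.30), Atp5o -0.00562 (-0.19 to 0.18, 0.0278 with block), Cox4i1 -0.0472 (-0.16 to 0.0695), Cox6a1 0.058 (-0.0387 to 0.22), Cox6a2 -0.14 (-0.37 to 0.44, 0.0462 with voom), Cox7a2 -0.0455 (-0.10 to 0.00809, 0.0489 with voom), Cox8a -0.0852 (-0.15 to 0.0163), Atp5g1 0.0182 (-0.045 to 0.0805, -0.0774 with voom), Atp5g2 0.0621 (-0.0452 to 0.14, -0.00742 with voom), Atp5g3 -0.0173 (-0.063 to 0.0539, 0.043 with voom), Cyc1 -0.0743 (-0.18 to 0.0908), Uqcrfs1 -0.0687 (-0.17 to 0.0745). With TMM CPM in place of plain CPM, the mean sums with IgG and anti-CD41 were 883.7 and 913.8 for complex I, 556.4 and 536.6 for complex III, 672.5 and 683.8 for complex IV, and 1848 and 1808 for complex V. The direction turned for complexes III and V, whose plain sums were 539.7 and 554.7, and 1793 and 1869.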
